A study of Ovis aries with 6 samples.

Results

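Autophagy, mitophagy and lysosome genes were examined in the longissimus muscle, the long muscle of the back, of 2 breeds of sheep. The members are 42 genes chosen by name, and 39 of them matched a row of the deposited count table by gene symbol, out of 23144 rows in all. ATG101, CTSD and CTSL were not analysed here under those names. The animals were yearling females, 3 of the Small Tail Han breed (STH) and 3 Qianhua Mutton Merino (QHMM), kept in 1 environment without an experimental treatment, and 1 library was made from each animal. Animals of the study were weighed in a fasted state before slaughter. QHMM is a breed for meat and wool derived from South African Mutton Merino rams and Northeast Fine-wool ewes, and STH is a local Chinese breed. The comparison is STH vs. QHMM, and it asks which of these genes differ between muscles of unlike growth and meat yield. Poly(A) RNA was sequenced on an Ion Proton instrument, and 14334544, 12980936 and 12382244 reads were counted on genes for QHMM against 13107349, 10982191 and 13546561 for STH. Values of single libraries are given in the order of replicates 1, 2 and 3. QHMM replicate 2 and STH replicate 3 had the lowest TMM factors of the 6 libraries, 0.852 and 0.853, where the other 4 lay between 1.01 and 1.20.

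Autophagy is the route by which a cell encloses its own proteins and organelles in a double membrane, the autophagosome, and delivers them to the lysosome for digestion. A kinase complex starts the membrane, a lipid kinase and its effectors extend it, and a conjugation system attaches proteins of the ATG8 family to it, which cargo receptors then bind. In skeletal muscle, autophagy and its form for mitochondria, mitophagy, take part in the turnover of fibre proteins and mitochondria and are known to rise in fasting and atrophy.

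Of the 39 genes, 38 passed the filter for low counts. ATG9B, the second form of the ATG9 membrane carrier, had 3, 2 and 0 raw counts in QHMM and 13, 0 and 0 in STH and was not tested in the main fit. Without a filter, edgeR and limma-trend did not call it. By the quasi-likelihood F test of edgeR, 3 of the 38 genes were up-regulated in STH vs. QHMM at an FDR below 0.05 and a fold change above 1.5, namely GABARAPL1, MAP1LC3A and BNIP3. Over all 12506 genes tested, 1.62% were called up-regulated. No member was called down-regulated, against 1.83% of all genes. DESeq2 and limma-trend also called 0 in that direction, where over all genes they called 543 of 13894 and 134 of 11140. At an unadjusted p below 0.05, edgeR gave 10 members with higher counts in STH, where the share over all genes was 9.43%, and 0 with lower counts, where it was 9.72%. The 3 STH libraries lay above the 3 QHMM libraries in 12 members (13.0% of all genes) and below them in 2 (11.7% of all genes). A log2 fold change above 0 was found in 26 of the 38 members, and in 51.8% of all genes. The median log2 fold change was 0.30 over the 38 members and 0.02 over all genes tested. These shares over all genes also apply to the edgeR counts given below for single roles and lists. With DESeq2, 6 members were called up-regulated, the others being MAP1LC3B, WDR45 and ATG7, beside 2.97% of the 13894 genes to which it gave an FDR.

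**Figure D1:**
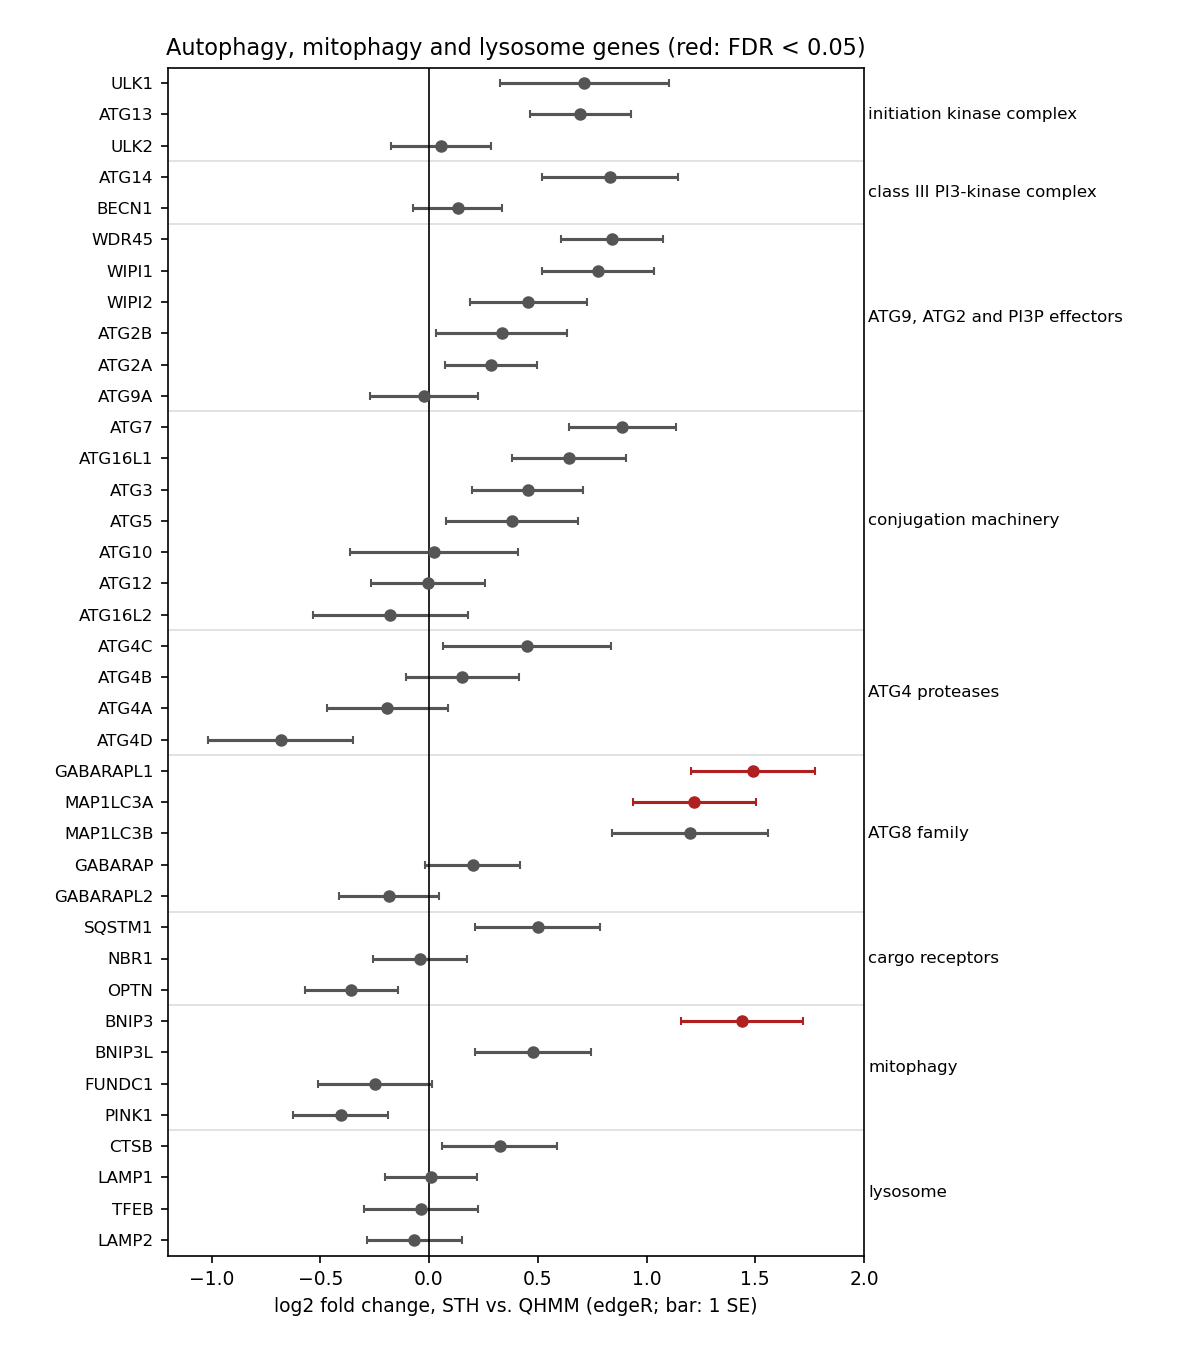
Log2 fold change of the 38 tested genes in STH vs. QHMM (x axis; points, bars of 1 SE from the edgeR fit, 3 libraries per breed), grouped by role on the y axis. The 3 genes in red had an FDR below 0.05, and the lowest point is ATG4D at -0.68.

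The STH libraries differed among themselves. Against the QHMM mean of each gene, the median log2 value of the 38 members was 0.09 in STH replicate 1, 0.33 in STH replicate 2 and 0.26 in STH replicate 3, and over all genes tested it was 0.05, 0.02 and 0.01. STH replicate 2 held the highest count of all 6 libraries for 19 members (22.8% of all genes), and STH replicate 1 the lowest of its breed for 24 (32.1% of all genes). The number of members above every QHMM library was 15 in STH replicate 1, 23 in STH replicate 2 and 21 in STH replicate 3, beside 30.3%, 34.3% and 31.2% of all genes. Within a breed, the median SD of a member on the log2 scale was 0.254 in QHMM and 0.295 in STH, beside 0.301 and 0.345 over all genes. With 1 library left out the calls changed, while the log2 fold changes of the 3 called members stayed between 0.93 and 1.74. Without QHMM replicate 1, 2 or 3, or without STH replicate 2, edgeR called 0 members, without STH replicate 3 it called 1, and without STH replicate 1 it called 4. Without both libraries of lowest TMM factor, a setting chosen after seeing the data, edgeR called 0, beside 0.0393% of all genes. The median log2 fold change of the members was 0.13 without STH replicate 2. In that fit ULK1 had 0.33, WIPI2 0.22, ATG3 0.25, ATG5 0.10, ATG16L1 0.40, ATG4B 0.08, MAP1LC3B 0.72 and CTSB 0.13, all lower by over 1.5 times than with every library, and ATG2B had -0.05.

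On the scale of RPKM, which divides by gene length and so lets genes be compared, the level of the members spanned a wide range. SQSTM1, a receptor that ties ubiquitinated cargo to the autophagosome, had the highest median RPKM in both breeds, 416 in QHMM and 610.4 in STH. BNIP3, a receptor on the outer mitochondrial membrane, took rank 2 in both, at 205 and 539.6. In QHMM they were followed by GABARAP, LAMP1 and MAP1LC3A, with medians of 123, 97.8 and 81.0. GABARAP lay above both others in each QHMM library, while the ranges of LAMP1 and MAP1LC3A overlapped. In STH, MAP1LC3A took rank 3 with a median of 227, above GABARAP at 165, and the ranges of the pair overlapped. GABARAPL1 ranked 14 in QHMM with 19.7 and 9 in STH with 51.3. At the lower end, ATG10, an enzyme that conjugates ATG12, had medians of 1.21 and 1.03 in QHMM and STH, and ATG4C, an ATG8 protease, had 0.581 and 0.655.

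**Figure D2:**
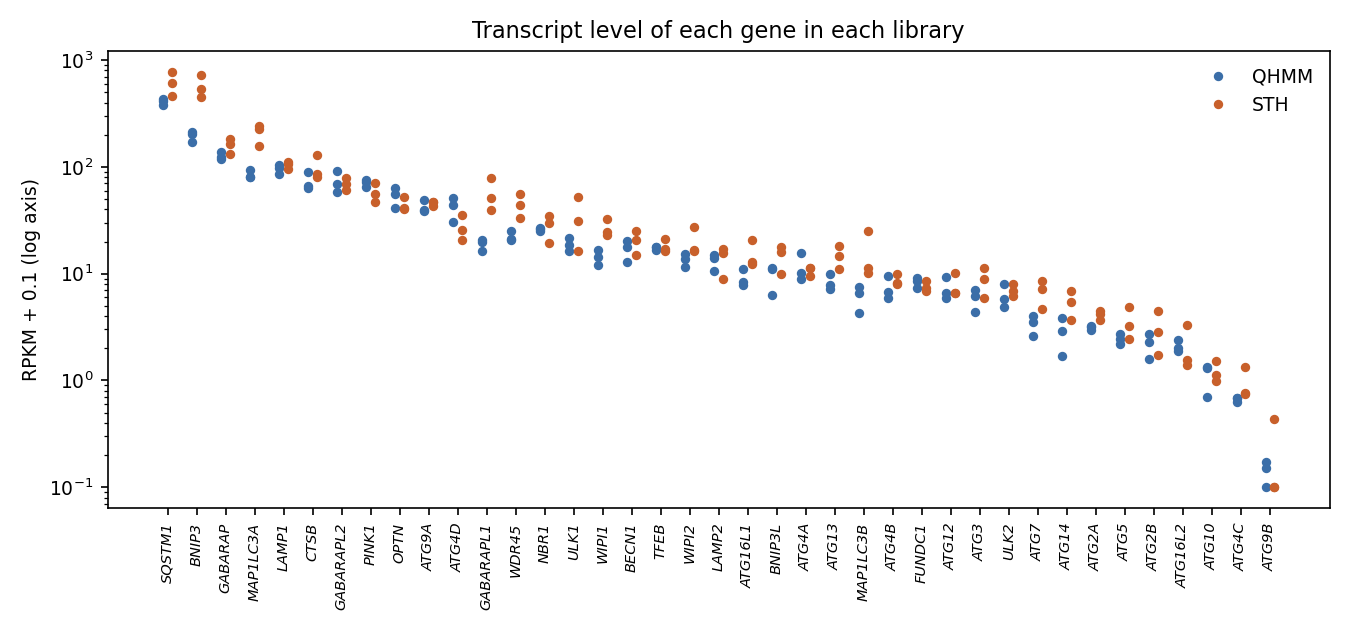
RPKM of the 39 genes in each library (y axis, log scale, 0.1 added; QHMM blue, STH orange; 3 points per breed), ordered on the x axis by the median over the 6 libraries. SQSTM1 and BNIP3 stand highest and ATG9B lowest.

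The ULK kinase complex, with the scaffold ATG13, receives signals of nutrient state and starts the autophagosome. ULK1, its main kinase and the most abundant by RPKM, had 713, 1125 and 803 normalized counts for QHMM against 606, 2099 and 1627 for STH. STH replicates 2 and 3 lay above the QHMM libraries but STH replicate 1 lay below all of them, and the log2 fold change of 0.71 (FDR = 0.351, SE 0.39) was not past the edgeR threshold. For ATG13 the normalized counts were 157, 203 and 213 for QHMM against 272, 369 and 287 for STH. Every STH library was above every QHMM library, with a log2 fold change of 0.70 and an edgeR FDR of 0.134. ULK2, a related kinase, had a log2 fold change of 0.06 (FDR = 0.925, SE 0.23). edgeR called 0 of these 3 genes, 1 had an unadjusted p below 0.05, and DESeq2 and limma-trend also called 0.

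The class III PI3-kinase complex makes the lipid PI3P on the growing membrane, with BECN1 as a core subunit and ATG14 as the subunit that directs it to autophagy. BECN1 had 520.4, 444 and 576 normalized counts for QHMM against 616, 552 and 519 for STH, ranges that overlapped, and a log2 fold change of 0.13 (SE 0.20). ATG14 counts were low, at 55.3, 37.5 and 72.1 for QHMM against 89.1, 122 and 84.0 for STH. The breeds did not overlap, and the log2 fold change was 0.83 (FDR = 0.176, SE 0.31) in edgeR. In RPKM, STH replicate 3 lay below QHMM replicate 3 for ATG14, at 3.58 against 3.71. Neither gene was called by edgeR, DESeq2 or limma-trend, and ATG14 alone had an unadjusted p below 0.05.

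PI3P is bound by the WIPI proteins WIPI1, WIPI2 and WDR45, while ATG9A carries lipid in vesicles and ATG2A and ATG2B transfer lipid to the membrane. WDR45 had 395, 574 and 401 normalized counts for QHMM against 720.3, 981 and 753 for STH. All STH libraries were above all QHMM libraries, although the edgeR FDR of its log2 fold change of 0.84 (SE 0.23) was 0.0787. DESeq2 called WDR45, and its FDR ranged from 0.0392 to 0.254 over 16 alternatives. WIPI1 had 285, 467 and 331 for QHMM against 463, 699 and 694 for STH, so that QHMM replicate 2 was above STH replicate 1, with a log2 fold change of 0.78 (FDR = 0.130, SE 0.26) in edgeR. ATG9A, the most abundant of the group in RPKM, had normalized counts of 1915, 2839 and 1826 for QHMM against 1920.1, 2067 and 2495 for STH. Its breeds overlapped, and its log2 fold change of -0.02 (SE 0.25) took the other sign with limma-trend on RPKM. WIPI2, ATG2A and ATG2B had log2 fold changes of 0.46, 0.28 and 0.33, and of these only ATG2A had breeds that did not overlap. The sign of ATG2B changed without STH replicate 2. Of the 6 genes tested, 5 had a log2 fold change above 0 and 2 had an unadjusted p below 0.05. edgeR and limma-trend called 0, and DESeq2 called 1.

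The conjugation machinery works as a relay in which ATG7 activates ATG12 and the ATG8 proteins, ATG10 and ATG3 pass them on, and the ATG12-ATG5-ATG16L1 complex sets the place where ATG8 proteins join the membrane. ATG7 had 133, 101 and 114 normalized counts for QHMM against 201, 262 and 182 for STH. The breeds were clear of each other, with the highest QHMM value in replicate 1 and the lowest STH value in replicate 3. The log2 fold change was 0.89 (FDR = 0.0785, SE 0.25) in edgeR, and DESeq2 called it with an FDR of 0.0494, where the FDR over 16 alternatives ranged from 0.0494 to 0.253. ATG16L1, the most abundant of the group in RPKM, had 158, 199 and 217 normalized counts for QHMM against 218, 386 and 294 for STH. STH replicate 1 exceeded QHMM replicate 3 by less than 1 normalized count, so that the breeds were apart by a narrow margin, with a log2 fold change of 0.64 (FDR = 0.212, SE 0.26). ATG3 was apart between the breeds by about 1 normalized count and overlapped in RPKM, with 0.45 and an unadjusted p above 0.05. The other 4 genes had log2 fold changes of 0.38 for ATG5, 0.02 for ATG10, -0.01 for ATG12 and -0.18 for ATG16L2. The sign of ATG10 changed with upper-quartile factors and that of ATG12 with limma-trend on RPKM. In all, 2 of the 7 had an unadjusted p below 0.05, edgeR and limma-trend called 0, and DESeq2 called 1.

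The ATG4 proteases trim ATG8 proteins before conjugation and release them from the membrane. ATG4D, the most abundant of the 4 in RPKM, had 511, 886 and 847 normalized counts for QHMM against 294, 396 and 709 for STH. STH replicates 1 and 2 lay below all QHMM libraries, while STH replicate 3 lay above QHMM replicate 1. Its log2 fold change of -0.68 (FDR = 0.297, SE 0.33) was the lowest of the members tested, and it was -0.45 without STH replicate 1 and -1.11 without STH replicate 3. ATG4A, ATG4B and ATG4C had log2 fold changes of -0.19, 0.15 and 0.45, and their breeds overlapped. ATG4C had 0.19 without STH replicate 1, and ATG4B lay between 0.06 and 0.32 with 1 library left out. None of the 4 had an unadjusted p below 0.05 in edgeR, and DESeq2 and limma-trend called 0.

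Proteins of the ATG8 family, which comprises the LC3 and GABARAP branches, become anchored in the autophagosome membrane and bind cargo receptors. Of the 5 genes, edgeR called 2 up-regulated, where the share of all genes was 1.62%. At an unadjusted p below 0.05, 3 had higher counts, where it was 9.43%. GABARAPL1 had 605, 564 and 570.5 normalized counts for QHMM against 974, 2119 and 1795 for STH. The QHMM values lay close together and below every STH value, and STH replicate 1 was nearer to QHMM than the other STH libraries were. The log2 fold change was 1.49 (FDR = 0.0225, SE 0.28) in the edgeR fit, a fold of 2.81. It ranged from 1.24 to 1.74 over 16 alternatives and was called in 10 of them. Without QHMM replicate 1, 2 or 3 or STH replicate 2, the edgeR FDR was 0.0824, 0.0762, 0.0791 and 0.0621, and the range over all 16 was 6.59e-05 to 0.176.

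MAP1LC3A, which encodes LC3A, had 821, 972 and 923 normalized counts for QHMM against 1335, 2107 and 2882 for STH. Again the QHMM libraries lay together and the STH libraries above them, here with STH replicate 3 highest. In edgeR the log2 fold change was 1.22 (FDR = 0.0447, SE 0.28), a fold of 2.33. It was called in 8 of 16 alternatives, which gave log2 fold changes of 0.93 to 1.45 and FDR values of 0.00200 to 0.207. The call was lost without any 1 library other than STH replicate 1. The edgeR FDR was then 0.148, 0.110 and 0.125 without QHMM replicates 1, 2 and 3, and 0.104 and 0.0913 without STH replicates 2 and 3.

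MAP1LC3B encodes LC3B, the form most often used as a protein marker of autophagosomes. Its normalized counts were 107, 199 and 187 for QHMM against 241, 584 and 305 for STH. STH replicate 2 was well above the rest, and the other STH libraries were also above all QHMM libraries. The log2 fold change of 1.20 (FDR = 0.0976, SE 0.36) was not past the edgeR threshold, but DESeq2 and 3 other alternatives of 16 called it, with the FDR between 0.0263 and 0.341 and log2 fold changes of 0.72 (without STH replicate 2) to 1.48. GABARAP, the most abundant of the family by median RPKM over the 6 libraries, though below MAP1LC3A in STH, had 1507, 2045 and 1521 normalized counts for QHMM against 1939, 1907 and 1984 for STH. Its breeds overlapped, with a log2 fold change of 0.20 (SE 0.22). GABARAPL2 had -0.18 (SE 0.23), with overlapping breeds as well.

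**Figure D3:**
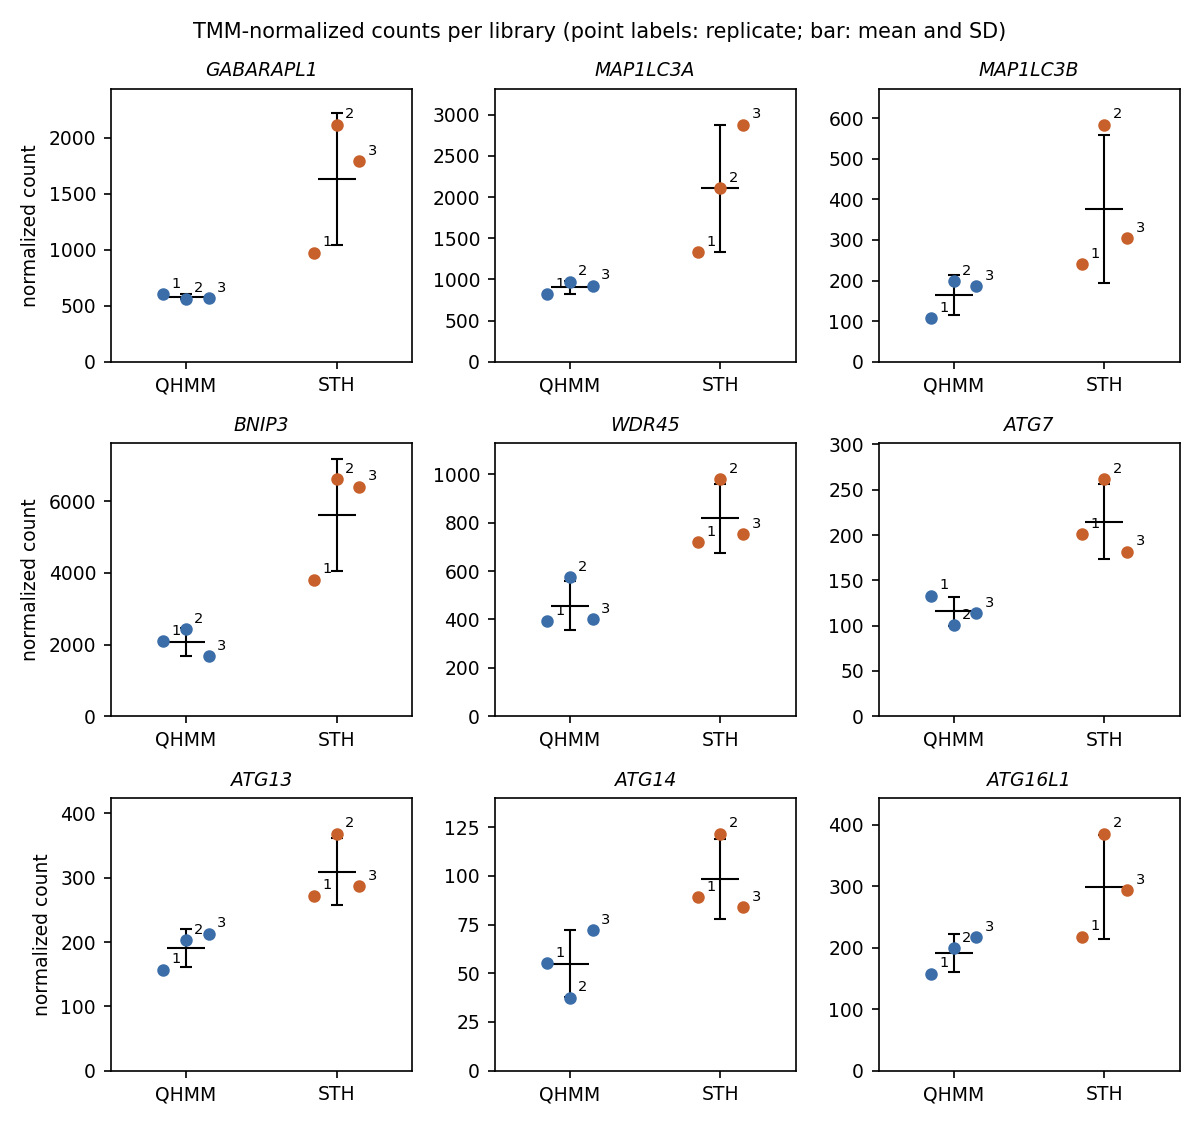
TMM-normalized counts (y axes, from 0) of 9 genes in the libraries of QHMM (blue) and STH (orange), with numbers for replicates and bars for the mean and SD of 3 libraries. The breeds do not overlap in any of these genes, which were selected for that and for an unadjusted p below 0.05, and STH replicate 2 is the highest library in all but MAP1LC3A.

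Summed over the 5 ATG8 family genes, RPKM was 283, 309 and 334 for QHMM against 457, 573 and 494 for STH. Each gene's share of that sum does not depend on library scaling. The MAP1LC3A share was 28.6%, 26.2% and 27.7% for QHMM against 34.1%, 39.5% and 48.6% for STH. Every STH library was above every QHMM library, and the mean was 27.5% ± 1.25 (SD, n = 3) in QHMM and 40.7% ± 7.32 (SD, n = 3) in STH. The share of GABARAPL1 was 7.26%, 5.22% and 5.90% for QHMM against 8.55%, 13.7% and 10.4% for STH, and that of GABARAPL2 was 20.5%, 22.3% and 27.4% for QHMM against 15.2%, 13.7% and 12.2% for STH. The breeds were apart for both, with GABARAPL1 higher and GABARAPL2 lower in STH. The difference of the GABARAPL1 share was 4.75 percentage points, and 9.43 in shares of normalized counts. For each of these 3 genes the two-sided exact permutation p over libraries was 0.1, which is the smallest that 3 against 3 libraries allow, and the Benjamini-Hochberg value over the 5 genes was 0.167. The GABARAP share had a mean of 41.0% in QHMM and 31.8% in STH (exact permutation p = 0.2, adjusted 0.25) and the MAP1LC3B share one of 1.93% and 2.93% (exact permutation p = 0.3, adjusted 0.3), and their breeds overlapped. The difference of the MAP1LC3B share, 0.992 percentage points, was 0.292 without STH replicate 2 and 1.62 in shares of normalized counts.

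**Figure D4:**
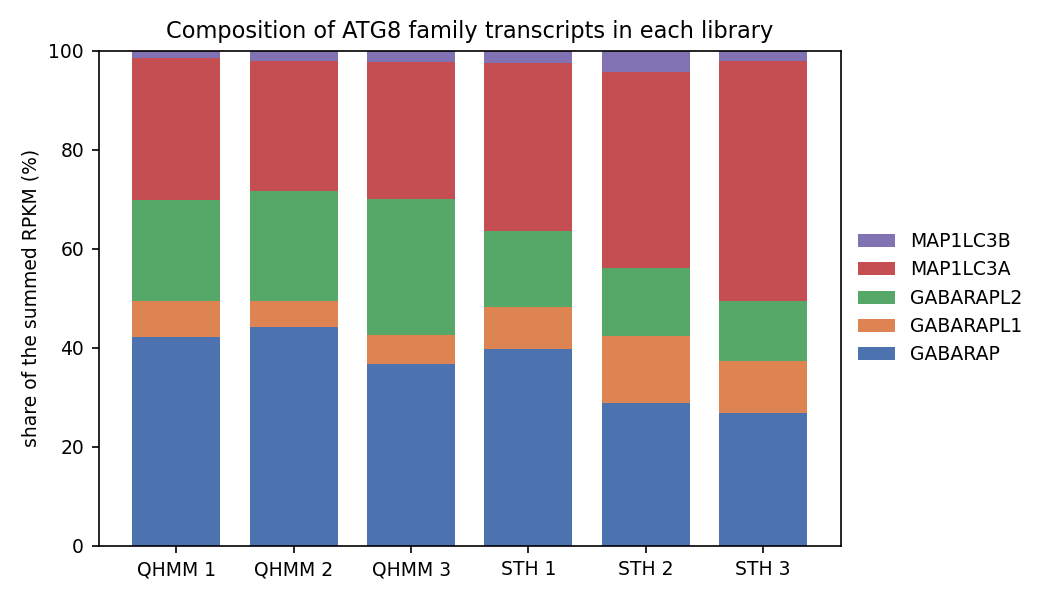
Share of each gene in the summed RPKM of the ATG8 family (y axis, percent) in the 6 libraries (x axis). The MAP1LC3A segment runs from 26.2% to 28.6% in QHMM and from 34.1% to 48.6% in STH.

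Cargo receptors bind ubiquitinated material on one side and ATG8 proteins on the other. SQSTM1, also known as p62, had 5427, 7062 and 6016 normalized counts for QHMM against 5541, 10253 and 10358 for STH. STH replicates 2 and 3 lay above all QHMM libraries, but STH replicate 1 lay among them, and the log2 fold change was 0.50 (FDR = 0.381, SE 0.29) in edgeR. OPTN, optineurin, had 1304, 1160.3 and 1469 for QHMM against 1044, 874 and 1154 for STH. All 3 STH libraries were lower, by a narrow margin between QHMM replicate 2 and STH replicate 3, with a log2 fold change of -0.36 (FDR = 0.401, SE 0.21). In RPKM its breeds overlapped. NBR1, a receptor related to SQSTM1, had a log2 fold change of -0.04, which took the other sign with limma-trend on RPKM. The RPKM ratio of SQSTM1 to NBR1 was 14.5, 16.7 and 16.1 for QHMM against 15.5, 22.8 and 31.4 for STH, so that STH replicate 1 lay within the QHMM range and the other 2 STH libraries above it. None of the 3 receptors had an unadjusted p below 0.05 in edgeR, and DESeq2 and limma-trend called 0. The SQSTM1 gene overlaps 5 other genes in the RefSeq table of the ARS-UI_Ramb_v3.0 assembly, and whether the counting used strand is not given in the sources used here, so part of its counts is uncertain. The same holds for 13 members in all, among them BECN1, ATG16L1, ATG4D and CTSB, whereas GABARAPL1, MAP1LC3A, MAP1LC3B and BNIP3 overlap no gene there.

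Mitophagy receptors mark mitochondria for enclosure, and PINK1 is the kinase that accumulates on damaged ones. BNIP3 had 2106, 2438 and 1669.8 normalized counts for QHMM against 3814, 6624 and 6413 for STH. The lowest STH value was well above the highest QHMM value, and STH replicate 1 was again the lowest of its breed. The edgeR log2 fold change was 1.44 (FDR = 0.0248, SE 0.28), a fold of 2.71, and 10 of 16 alternatives called it, with log2 fold changes of 1.29 to 1.64 and FDR values of 4.25e-05 to 0.132. Without QHMM replicates 1, 2 and 3 in turn, the edgeR FDR was 0.0869, 0.0558 and 0.0954, and without STH replicates 2 and 3 it was 0.0733 and 0.0514.

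PINK1 had 2304, 2472 and 2357 normalized counts for QHMM against 1525, 2071 and 1786 for STH. Here the STH libraries were the lower ones, with no overlap, but the log2 fold change of -0.41 (FDR = 0.340, SE 0.22) was not past the edgeR threshold, and in RPKM the breeds overlapped. BNIP3L, also named NIX, had a log2 fold change of 0.48 (SE 0.27) with breeds apart in normalized counts but not in RPKM. The table pairs 2 further rows with BNIP3L, and how alike these rows are was not examined. Only unique mapped reads were counted, so reads of BNIP3L may be missing or divided between rows, and its values are uncertain. FUNDC1, a receptor of the outer mitochondrial membrane, had -0.25 (SE 0.26). The RPKM ratio of BNIP3 to BNIP3L was 18.7, 33.0 and 15.5 for QHMM against 25.7, 45.7 and 54.7 for STH, and the breeds overlapped.

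The lysosome supplies the hydrolases and the membrane in which autophagy ends. LAMP1, a main glycoprotein of that membrane and the most abundant of the 4 genes in RPKM, had 2621, 2568 and 2426 normalized counts for QHMM against 2347, 2476 and 2838 for STH. The breeds overlapped, and the log2 fold change of 0.01 (SE 0.21) changed sign with DESeq2 and with upper-quartile factors. LAMP2, a membrane glycoprotein needed for fusion with autophagosomes, had -0.07, the protease CTSB 0.32 and TFEB, a transcription factor of lysosomal genes, -0.04. LAMP2 and TFEB took the other sign with limma-trend on RPKM. None of the 4 had an unadjusted p below 0.05 in edgeR, DESeq2 and limma-trend called 0, and the lowest edgeR FDR was 0.556.

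Beside the members, 125 other genes of the pathway were listed by function, of which 118 had a row and 115 were tested. edgeR called 2 up-regulated and 1 down-regulated in STH, beside 1.62% and 1.83% of all genes. At an unadjusted p below 0.05, 13 had higher and 6 lower counts, beside 9.43% and 9.72% of all genes, and the median log2 fold change was 0.13. All 3 called genes came from cargo receptors and hydrolases. CALCOCO2, known as NDP52, a receptor for bacteria and mitochondria, had 889, 1123 and 1235 normalized counts for QHMM against 2048, 2972 and 2018 for STH. All STH libraries were higher, with a log2 fold change of 1.12 (FDR = 0.0396, SE 0.25) in edgeR. STBD1, which tethers glycogen to membranes and binds GABARAPL1, had 1708, 1931 and 1966 for QHMM against 636, 179 and 597 for STH. It was lower in every STH library and lowest in STH replicate 2, and the edgeR log2 fold change was -1.99 (FDR = 0.0260, SE 0.40). CTSF, the lysosomal protease cathepsin F, had 555, 624 and 495 for QHMM against 1085, 1005 and 998 for STH. The STH libraries were all higher and close together, with 0.88 (FDR = 0.0411, SE 0.20) in edgeR. CALCOCO2 and STBD1 lost their calls without QHMM replicate 1, 2 or 3, CALCOCO2 also without STH replicate 2, and CTSF without any 1 of the 6 libraries and with the replicate block. Over 16 alternatives the log2 fold changes were 0.89 to 1.23 for CALCOCO2, -2.28 to -1.62 for STBD1 and 0.81 to 1.0 for CTSF. The highest FDR was 0.155 for CALCOCO2, 0.148 for STBD1 and 0.142 for CTSF, and none changed sign.

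In the list of 12 other cargo and mitophagy receptors tested, 1 gene was called in each direction, beside 1.62% up-regulated and 1.83% down-regulated of all genes. Of 29 hydrolases tested, 1 was called up-regulated, and the median log2 fold change was 0.02. At an unadjusted p below 0.05, 4 hydrolases had higher and 1 lower counts, beside 9.43% and 9.72% of all genes. DESeq2 called 2 hydrolases up-regulated, CTSF and CTSH. In edgeR CTSH had 0.85 (FDR = 0.0520, SE 0.21) with breeds apart. The 8 tested genes of autophagosome formation had a median of 0.25, and VMP1, a membrane protein of the endoplasmic reticulum, had 1.05 (FDR = 0.165, SE 0.38) in edgeR with breeds that overlapped. It had 0.50 without STH replicate 2 and was called, with 1.38, without STH replicate 3. Among 15 genes of fusion between autophagosome and lysosome, the median was 0.23, and SNAP29 and VPS39, a SNARE and a tethering subunit, had 0.57 and 0.51. The vacuolar ATPase acidifies the lysosome, and its 16 genes had a median of 0.21, with 0.97 for the membrane subunit ATP6V0A1 (edgeR FDR = 0.0865) and -0.56 for the stalk subunit ATP6V1E1 (edgeR FDR = 0.177).

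For 14 genes of lysosomal membrane and sorting the median was 0.30. The sorting receptor SORT1 had 449, 344 and 508 normalized counts for QHMM against 541, 1576 and 974 for STH, with a log2 fold change of 1.25 (FDR = 0.0787, SE 0.35) in edgeR. The calcium channel MCOLN1 had 206, 309 and 247 for QHMM against 378, 497 and 513 for STH, with 0.87 (FDR = 0.0728, SE 0.23) in edgeR. The breeds were apart for both, with STH higher. Without STH replicate 2, SORT1 had 0.79 and ATP6V0A1 had 0.61, and without STH replicate 1 SORT1 was called. In 21 genes of mTORC1, TSC and the MiT factors, which regulate autophagy and lysosomal genes, the median was 0.02, with 0.61 for FNIP2 and -0.58 for LAMTOR2 at edgeR FDR values of 0.189 and 0.184. edgeR called 0 genes in the lists of formation, fusion, vacuolar ATPase, membrane and mTORC1. Higher and lower counts at an unadjusted p below 0.05 numbered 1 and 0, 2 and 0, 1 and 1, 3 and 1, and 1 and 1 in these lists. DESeq2 called ATP6V0A1, SORT1 and MCOLN1 among them, and limma-trend called MCOLN1.

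Markers of cell types were examined in the same libraries. Skeletal muscle was well represented, with 7 of 8 listed genes having a row, and their normalized counts summed to 2127225, 2874629 and 2078962 for QHMM against 1471121, 1965579.8 and 2967789 for STH. ACTA1, skeletal alpha-actin, was the most abundant with 1126887, 1475734 and 1086561 for QHMM against 542735, 836414 and 1549425 for STH, whereas the row of TNNT3, a fast troponin, was at 0 in all 6 libraries. edgeR called 0 muscle markers, 2 had lower counts at an unadjusted p below 0.05, and DESeq2 and limma-trend each called 1 down-regulated. It was MB, myoglobin, with -1.47 (FDR = 0.0683, SE 0.39) in edgeR, breeds apart and a call in 7 of 16 alternatives, one of them without STH replicate 3. MYH2, a fast myosin, had -0.82, also with breeds apart, and CKM, TTN and DES had 0.30, 0.12 and 0.36 with breeds that overlapped. In 16 alternatives CKM ranged from 0.13 to 0.50 and DES from 0.03 to 0.54. TTN ranged from -0.12 to 0.30 and changed sign in 1 of them. The adipocyte markers had summed normalized counts of 4986, 1492 and 2178 for QHMM against 1033, 748 and 669 for STH. Of these 5 genes edgeR called 4 down-regulated in STH, beside 1.83% of all genes, led in abundance by ADIPOQ with -2.13 (FDR = 0.0143, SE 0.36). The other 3, named after their values were seen, were PLIN1, LEP and CIDEC. With 1 library left out, ADIPOQ was called in all 6 fits, PLIN1 in all but the one without STH replicate 2, LEP in those without QHMM replicate 2 or STH replicate 1, and CIDEC in the one without QHMM replicate 2. DESeq2 called 4 of the 5 and limma-trend 2. The last of the 5, FABP4, had -0.04 (FDR = 0.980, SE 0.61) with breeds that overlapped, and changed sign in 8 of 16 alternatives. QHMM replicate 1 was highest and the breeds did not overlap in the sum. The 5 fibroblast markers summed to 22166, 17807 and 29843 for QHMM against 13929, 6391 and 12432 for STH, also without overlap. The separation rested on COL1A1 and COL1A2, whereas PDGFRA, DCN and LUM had -0.46, -0.45 and -0.89 with breeds that overlapped. Across 16 alternatives PDGFRA ranged from -0.73 to -0.20, DCN from -0.71 to -0.25 and LUM from -1.69 to -0.28. Of the 5, edgeR called 0 although 2 had lower counts at an unadjusted p below 0.05, DESeq2 called 2 and limma-trend 0, and the most abundant, COL1A1, had -1.30 (FDR = 0.113, SE 0.41) in edgeR.

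Macrophages are rich in lysosomes. Their 6 markers with a row had summed normalized counts of 1265, 1047 and 1073 for QHMM against 1314, 802 and 742 for STH, with breeds that overlapped. CSF1R was the most abundant at 736, 595 and 594 for QHMM against 635, 339.7 and 334 for STH, edgeR called 0, 1 had lower counts at an unadjusted p below 0.05, and DESeq2 and limma-trend called 0. CD14 and CD68 had log2 fold changes above 0, 0.56 and 0.25, and CSF1R, MRC1 and AIF1 had -0.55, -0.23 and -0.80. In 16 alternatives CD14 ranged from 0.31 to 0.71 and CD68 from 0.15 to 0.39. CSF1R ranged from -0.95 to -0.39 and AIF1 from -0.96 to -0.62. MRC1 ranged from -0.84 to 0.09 and changed sign in 1 of them. The 5 neutrophil markers summed to 103, 44.5 and 56.8 for QHMM against 54.5, 27.8 and 66.1 for STH, with CSF3R most abundant. edgeR called 0 of the 2 tested and 0 had an unadjusted p below 0.05, limma-trend called 0, and DESeq2 called LTF, removed by the edgeR filter, down-regulated although its breeds overlapped. The 3 of 6 blood markers with a row summed to 58.0, 18.7 and 46.7 for QHMM against 65.2, 53.4 and 25.8 for STH, with HBA1 most abundant, so that both lists were near 0 beside muscle genes. The 4 of 5 endothelial markers with a row summed to 8083, 7855 and 7945 for QHMM against 9692, 8554 and 8384 for STH, higher in each STH library. VWF was the most abundant, with breeds apart in normalized counts. In RPKM its breeds overlapped, with 32.4 in STH replicate 3 against 33.4 in QHMM replicate 3. Of the endothelial markers, 0 were called by edgeR, DESeq2 or limma-trend or had an unadjusted p below 0.05. The log2 fold change was 0.40 for VWF, 0.16 for TEK, 0.04 for PECAM1 and -0.22 for CDH5, so that the higher sum rested on VWF. The 3 satellite cell markers summed to 204, 160.4 and 174 for QHMM against 269.8, 332 and 336 for STH, and CDH15, the most abundant, carried the higher sum in STH. It was called with 1.12 (FDR = 0.0448, SE 0.26) in edgeR, called in 6 of 16 alternatives and lost without any 1 library other than STH replicate 1. Its call was also lost with the replicate block and with limma-trend on log2(RPKM + 1). The other 2 markers, named after their values were seen, had -1.43 (FDR = 0.294, SE 0.70) for PAX7 and -0.01 (FDR = 0.994, SE 0.54) for MYF5 in edgeR, with breeds that overlapped, and PAX7 had -0.61 without QHMM replicate 1. MYF5 ranged from -0.91 to 0.37 over 16 alternatives and changed sign in 5 of them. The part of muscle fibre, adipocyte, fibroblast, endothelial and satellite cell markers in the values of the autophagy genes was not tested. In such bulk samples, fewer cells of a type and less RNA per cell cannot be told apart.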

How the data were processed

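Longissimus muscle of 3 QHMM and 3 STH sheep was sequenced, with 1 library per animal. The authors mapped reads to the sheep genome (Oar 3.1), kept unique mapped reads and deposited raw counts per gene. They also deposited RPKM values, which divide by gene length and library total. The aligner, the counting program and its use of strand are not given in the sources used here.

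Counts were tested in R 4.3.3 with edgeR 4.0.16 (TMM, filterByExpr, glmQLFit and glmQLFTest, breed as the only term). Genes were called at a Benjamini-Hochberg FDR below 0.05 over 12506 genes and a fold change above 1.5 in either direction, the thresholds of the study's methods. EBSeq, the program named there, was not used here. The SE was obtained from the log2 fold change and the F statistic. Normalized counts are counts divided by TMM-adjusted library size relative to its mean. Exact permutation tests used SciPy 1.17.1 with Python 3.11.15, NumPy 2.4.6 and pandas 2.3.3, and plots matplotlib 3.10.9. Replicates within a breed differed by more than sampling noise. With a median depth of 13044142 counts, values at or under 3 counts were treated as the floor.

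Members and lists were chosen with earlier results of these data known. Other genes were matched by symbol or by the only row that the table pairs with it. Every member is named by role. Values in every library are given for called members, members with an unadjusted p below 0.05 and breeds that do not overlap, and the member with the highest median RPKM of each role. From each pathway list, called genes are named, otherwise up to 2, those of largest absolute log2 fold change with an unadjusted p below 0.05 and a mean of at least 20 normalized counts. From each marker list, the most abundant gene and any at 0 are named, and others were named after their values were seen.

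Alternatives were DESeq2 1.42.0, upper-quartile factors, no filter, at least 10 counts in every library, a replicate block, no minimum fold change, each library left out, and limma-trend (limma 3.58.1) on log2(RPKM + 1) or log2(RPKM + 0.1) for genes that reached an RPKM of 1 in 3 or more libraries, or unfiltered. Those 25 RPKM rows whose names had turned into dates were left out. After the data were seen, 2 more were run, without the 2 libraries of lowest TMM factor and with limma-trend on RPKM divided by the TMM factor. The tests across genes were also run on simulated counts, and the outcome is not reported here. Those counts were drawn independently for each gene and library, so shifts of many genes in 1 library beyond its scaling were not simulated. All 39 members matched a RefSeq gene of ARS-UI_Ramb_v3.0 by symbol, used for overlaps only, and 13 overlap another gene there.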

Additional observations from a re-analysis of the deposited data

How the results depend on the processing

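The number of members called up-regulated in STH, 3 in edgeR, was 6 with DESeq2 and 1 with limma-trend on log2(RPKM + 1) without a filter. The shares over all genes were 1.62%, 2.97% and 0.306%, and the cause was not tested. The number of members lay between 0 and 4 when 1 library was left out, in fits that called 0.392% to 2.23% of all genes up-regulated. It was 0 without the 2 libraries of lowest TMM factor, beside 0.0393% of all genes. These settings use fewer libraries. The number called down-regulated was 0 in all 17 alternatives. Over all genes it ranged from 6 (without the 2 libraries of lowest TMM factor) to 543 (DESeq2). The median log2 fold change of the members stayed above 0 in all alternatives and ranged from 0.13 (without STH replicate 2) to 0.33 (without QHMM replicate 2) with 1 library left out. For the 9 members with breeds apart and an unadjusted p below 0.05, 118 single-gene results kept their side of the threshold, 20 lost the call, 6 gained it and none changed sign. In shares of TMM-normalized counts, which are not divided by gene length, the difference of the GABARAPL1 share was 9.43 percentage points against 4.75 in RPKM, that of the MAP1LC3A share was 8.86 against 13.2, and apart from GABARAPL1 the shares moved by less than the replicate SD pooled over both breeds, though MAP1LC3A and MAP1LC3B by more than the QHMM SD.

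Over all genes, 432 were called in edgeR, 956 with DESeq2, 806 without a filter on counts, 78 with limma-trend without a filter, 131, 208 and 150 without QHMM replicates 1, 2 and 3, 183 without STH replicate 2 and 11 without the 2 libraries of lowest TMM factor. Limma-trend on log2(RPKM + 1) and log2(RPKM + 0.1) moved the median of all genes to 0.12 and 0.14, and the up-regulated share of the calls was 61.3% and 61.9% against 47.0% in edgeR and 69.2% unfiltered. Relative to those medians the members stood at 0.20 and 0.24, against 0.28 in edgeR. With RPKM divided by the TMM factor, added after seeing the data, the share was 45.7% and 2 members were called, beside 1.71% of all genes called up-regulated.

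With 1 library left out, ULK2, ATG9A, ATG2B, ATG10, ATG12, ATG16L2, ATG4A, NBR1, TFEB, LAMP1 and LAMP2 changed sign in 1 or more fits, and BECN1, WIPI2, ATG4B, GABARAP, GABARAPL2, BNIP3L, FUNDC1 and CTSB kept their sign but moved by over 1.5 times without some other library.

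With a replicate block, 4 members and 457 genes in all were called. The titles share numbers, but deviations of same-numbered libraries correlated at 0.226, -0.0380 and -0.130, and QHMM replicate 2 correlated best with STH replicate 3 (0.287), so not every library correlated best with its own number. Whether same-numbered libraries were prepared together is not given in the sources used here. ATG9B, removed by the edgeR filter, was tested without a filter in edgeR and limma-trend and not called, and DESeq2 gave it no adjusted p.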

Other observations

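Other rows of the table bear on the same genes and were chosen after their values were seen. The table pairs 2 rows by sequence similarity with NPC1, a cholesterol exporter of the lysosomal membrane. LOC101120623 had 295, 292 and 224 normalized counts for QHMM against 805, 3886 and 1872 for STH. LOC101120716 had 56, 49 and 41 raw counts for QHMM against 181, 803 and 340 for STH. Both were higher in every STH library and highest in STH replicate 2, with log2 fold changes of 3.02 (FDR = 0.0123, SE 0.48) and 3.22 (FDR = 0.0140, SE 0.54) in edgeR, above every member. The first was called with any 1 library left out, and the second was not called without QHMM replicate 1 or 3. Neither was called without both libraries of lowest TMM factor or with limma-trend without a filter, and over 16 alternatives their highest FDR was 0.116 and 0.118. Reads of similar copies cannot be told apart here, so the values of each row are uncertain.

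C3H12orf44, the row paired with ATG101 of the ULK complex, had 505, 319.6 and 214 normalized counts for QHMM against 229, 255 and 374 for STH and a log2 fold change of -0.28 (FDR = 0.688, SE 0.32) in edgeR. That value ranged from -0.58 to 0.08 over 16 alternatives and changed sign in 1 of them. CTSL1, paired with CTSL, held 4, 4 and 5 raw counts in QHMM and 2, 0 and 0 in STH and was not tested. CTSL2, paired with the related protease CTSV, had a log2 fold change of 0.19 (SE 0.23), and its breeds overlapped. For CTSL2 the range over 16 alternatives was -0.03 to 0.29, with a change of sign in 1 of them. Of the 2 rows paired with BNIP3L, LOC101116495 had 50.9, 42.1 and 40.6 for QHMM against 89.9, 66.2 and 63.9 for STH and LOC101109027 had 20.5, 10.5 and 15.2 for QHMM against 33.8, 12.8 and 11.2 for STH, and edgeR called neither.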
